A study of Caenorhabditis elegans with 15 samples.

Results

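The cytochrome P450 genes of Caenorhabditis elegans were taken as the genes whose WormBase symbol, looked up by gene identifier, starts with cyp- followed by a digit. The rule uses names and no measured value, and it found 74 genes among the 47111 of the deposited table. RNA had been sequenced from young adult worms of 5 genotypes, with 3 libraries each. The mutants carried the puf-8 alleles ust221 (coded MUT-4A in the labels), ust222 (MUT-4N), ust223 (MUT-8G) or ok302, and the control was N2, the common laboratory wild type. The codes are not interpreted here, and puf-8 encodes a Pumilio-family RNA-binding protein that binds the 3' UTRs of mRNAs. All genotypes grew at 20 °C on Escherichia coli OP50, and whole worms were harvested, so each value pools the RNA of all tissues, in which fewer cells of a type and less RNA per cell cannot be told apart.

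Cytochrome P450 enzymes hold a heme group and use electrons, passed on by the reductase EMB-8 in worms, to insert an oxygen atom into lipids, steroids and foreign compounds. In C. elegans many of them are made in the intestine, where drugs and plant or bacterial chemicals raise their mRNAs. Others act on the body's own lipids, among them polyunsaturated fatty acids, eggshell lipids and sterol hormones. Families are numbered by sequence, and the numbered families group into clans: here 42 genes fell in the CYP2 clan (cyp-14, cyp-33, cyp-34, cyp-35 and cyp-36), 19 in the CYP3 clan (cyp-13, cyp-25 and cyp-43), 11 in the CYP4 clan (cyp-29, cyp-31, cyp-32, cyp-37 and cyp-42), 1 was the mitochondrial-type cyp-44A1, and 1, cyp-23A1, was listed apart. All 74 carried the Pfam P450 domain in the deposited descriptions. That domain stood in 81 genes of the table, the others being daf-9, dach-1 and 5 pseudogenes.

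Chromosome V held 41 of the 74 genes, against 12 on II, 7 each on IV and X, 6 on III and 1 on I. With neighbours defined by starts within 20 kb, 45 genes lay in 11 clusters. The largest cluster held 10 genes at V:3936326-3973001 as the deposited table gives it (the build is not named in the sources used here). Its plus strand carried cyp-35A5, cyp-35B1, cyp-35B2 and cyp-35B3, and its minus strand cyp-34A5 to cyp-34A10.

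Libraries held 20969800 to 29352254 counts. The mutated gene puf-8 had 3 to 11 counts in ok302 libraries, against 2043 to 3899 in N2 and 737 to 5008 in the ust libraries. The labels do not say whether the 3 libraries were grown as separate cultures, so each p-value reflects the spread between libraries that may differ only technically. N2 replicate 1 and ust222 replicates 1 and 3 stood apart from the libraries of their own genotype: 12 sperm genes summed to 4.77, 4.62 and 4.26 CPM (counts scaled to a common library size) there, against 76.1 in ust222 replicate 2 and 78.4 and 100.8 in N2 replicates 2 and 3. In the same 3 libraries 12 molting genes summed to 606, 713 and 734 CPM, against 62.8 in ust222 replicate 2 and 70.7 and 67.8 in N2 replicates 2 and 3. Results are therefore also given for the 12 libraries left without these 3, an alternative chosen after seeing the data that leaves 1 ust222 library.

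Between 59 and 73 of the 74 genes had a count in a library, and 67 passed the filter on low counts and were tested. The 7 others were cyp-25A6, cyp-33B1, cyp-33C1, cyp-33C6, cyp-33C11, cyp-34A7 and cyp-35B3. Of these, cyp-35B3 had 0 counts in all 15 libraries, where a count of 0 allows a level of up to 0.0996 to 0.203 CPM per library by counting error alone.

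Most of the P450 calls against N2 were gains, and most were in ok302. In ok302, 18 P450 genes rose and 4 fell by edgeR's quasi-likelihood test at a Benjamini-Hochberg adjusted p under 0.05, which is 26.9% and 5.97% of the 67 tested, against 8.45% and 15.4% of all genes tested. In ust223, 6 rose and none fell (8.96% of those tested), against 1.13% and 0.227% of all genes. In ust221, 3 rose and none fell (4.48%), against 1.03% and 0.761% of all genes, or 1.79% in either direction. In ust222 none was called, and 0.00581% of all genes were, with 6 P450 genes at an unadjusted p under 0.05 and none called by DESeq2. The median log2 fold change of the 67 genes was 0.30 in ust221, 0.05 in ust222, 0.61 in ust223 and 0.96 in ok302, beside medians over all genes tested of -0.09, -0.17, -0.09 and 0.10. These comparisons share the 3 N2 libraries.

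Without the 3 libraries that stood apart, 71 P450 genes were tested. Then 14 rose and 2 fell in ust221 (7.0% and 6.65% of all genes), none was called in ust222 (0.0109% of all genes higher and 0.00545% lower), 20 rose and none fell in ust223 (7.84% and 3.32%), and 31 rose and 7 fell in ok302 (26.2% and 23.6%). Without N2 replicate 1 alone, 10 P450 genes rose and 2 fell in ust221 (3.7% and 4.71% of all genes), 3 rose and 1 fell in ust222 (4.2% and 1.26%), and 11 rose and none fell in ust223 (2.28% and 0.773%). Without N2 replicate 3, 11 rose and 2 fell in ok302 (3.98% and 9.21% of all genes). In ust221 the count was 1, a gain, without N2 replicate 2 (0.317% of all genes higher and 0.249% lower) and without N2 replicate 3 (0.282% and 0.186%). Leaving out each library in turn, cyp-35A2 kept its call in ust221 and 12 genes kept theirs in ok302. In ust223, 4 kept theirs (cyp-14A2, cyp-25A1, cyp-35A2 and cyp-35B1). The share of all genes that kept a call in this way, or under the alternatives that follow, was not counted. Of the calls against N2, 9 in ok302 (cyp-25A1, cyp-29A4, cyp-31A2, cyp-31A3, cyp-33C5, cyp-33C7, cyp-33C8, cyp-35A2 and cyp-35B1), 2 in ust223 (cyp-25A1 and cyp-35A2) and 0 in ust221 also passed under each other scaling, filter, tool and choice of libraries tried, the 12 libraries aside.

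**Figure D1:**
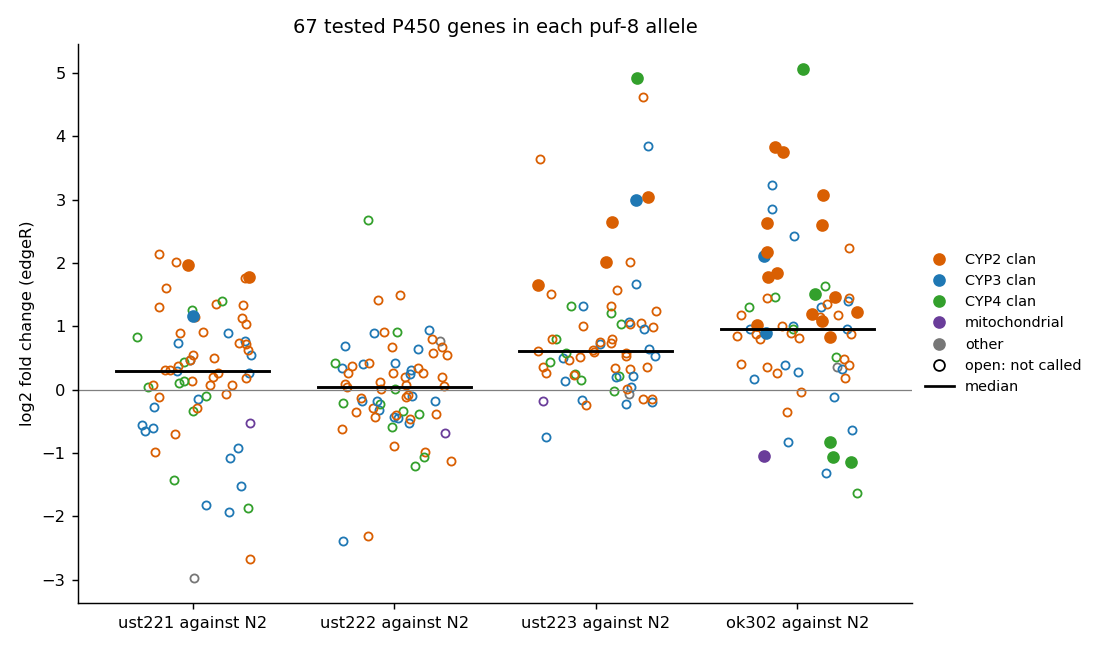
Each circle is the log2 fold change (edgeR) of 1 of the 67 tested P450 genes in ust221, ust222, ust223 or ok302 against N2, coloured by clan. Filled circles passed the test (3, 0, 6 and 18 genes above 0, and 4 below 0 in ok302) and black lines mark the medians of 0.30, 0.05, 0.61 and 0.96.

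By clan, the 36 tested CYP2 genes had 2 calls up in ust221, 4 in ust223 and 14 in ok302, and none down. The 18 tested CYP3 genes had 1, 1 and 2 calls up and none down in the same genotypes. The 11 CYP4 genes had 1 call up in ust223, and in ok302 2 up (cyp-29A4 and cyp-32A1) and 3 down, all of these cyp-31A genes. Of all genes tested, 1.03% rose and 0.761% fell in ust221, 1.13% and 0.227% in ust223, and 8.45% and 15.4% in ok302. Summed over all 74 genes, P450 transcripts took 897, 848 and 837 CPM in ust221, 492, 659 and 499 in ust222, 949, 969 and 938 in ust223, 757, 697 and 791 in ok302, and 448, 652 and 611 in N2. The ust221, ust223 and ok302 libraries all lay above the N2 libraries on this scale. On library totals without further scaling the ust221 sums were 617, 648 and 857 CPM, against 474, 652 and 539 in N2, and these groups overlapped.

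The composition of this sum also differed. The cyp-35A genes made up 25.5% to 27.7% of it in ust221, 14% to 21.8% in ust222, 16.6% to 22.8% in ust223 and 16.8% to 21.4% in ok302, against 9.93% to 12.1% in N2. The cyp-31A genes made up 20.2% to 21.5% in ust221, 27.3% to 31.1% in ust222, 21.2% to 27.4% in ust223 and 11.7% to 14.1% in ok302, against 27.3% to 38.5% in N2. These shares are given as a description, with no test.

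Levels were compared between genes as CPM per kilobase of deposited gene length, as mean ± SD of 3 libraries. In N2 the highest levels were those of cyp-31A5 (59.5 ± 20.3), cyp-31A2 (48.8 ± 15.5), cyp-31A3 (32.6 ± 9.58), cyp-44A1 (28.1 ± 11), cyp-35A2 (27.0 ± 5.1) and cyp-35C1 (22.2 ± 13.2), neighbours whose SDs overlap. In ust221 cyp-35A2 came first at 92.2 ± 4.82 and cyp-35C1 second at 55.9 ± 1.54, followed by the 3 cyp-31A genes. The first place also went to cyp-35A2 in ust223 (84.6 ± 11.1) and in ok302 (63.2 ± 9.17). In ust222 the order at the top was cyp-31A5 (50.8 ± 3.11), cyp-31A2 (42.2 ± 4.78) and cyp-35A2 (40.3 ± 14.5), of which the last overlapped both others within 1 SD and the first pair did not overlap each other.

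The cyp-35A genes, which foreign compounds raise in worms and which have been tied to fat storage, gave calls against N2 in ust221, ust223 and ok302, each of them a gain. All 5 had positive log2 fold changes in each of the 4 alleles under each scaling of the libraries tried. With all 15 libraries, 45% of all genes tested were positive in ust221, 36.5% in ust222, 41.3% in ust223 and 53.1% in ok302. Of the 5, 2 passed the test in ust221 (cyp-35A2 and cyp-35A3), 2 in ust223 (cyp-35A1 and cyp-35A2) and none in ust222. In ok302, 3 passed (cyp-35A1, cyp-35A2 and cyp-35A4). Of all genes tested, 1.03% rose in ust221, 1.13% in ust223, 8.45% in ok302 and 0.00581% in ust222. Among the 12 libraries the counts were 5 in ust221 (7.0% of all genes higher), 3 in ust223 (7.84%) and 3 in ok302 (26.2%).

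The most abundant of them, cyp-35A2, stood at 155, 151 and 140 CPM in ust221, 49.9, 91.6 and 53.0 in ust222, 144, 149 and 116 in ust223, 100.4, 87.8 and 117 in ok302, and 34.8, 51.2 and 44.4 in N2. Every library of ust221, ust223 and ok302 was above every N2 library, while ust222 overlapped N2 and was highest in replicate 2, the library that did not stand apart. The log2 fold change was 1.77 ± 0.23 in ust221 (edgeR, adjusted p = 0.00467), 0.58 ± 0.23 in ust222 (0.599), 1.65 ± 0.23 in ust223 (0.00301) and 1.23 ± 0.23 in ok302 (0.00235; ± is the standard error, n = 3 libraries per genotype). No left-out library ended these 3 calls, and the ust221 call was lost with only the 6 libraries of the comparison (adjusted p = 0.0609).

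cyp-35A3 stood at 52.9, 42.3 and 39.8 CPM in ust221, 11.7, 25.2 and 9.25 in ust222, 42.2, 35 and 24.9 in ust223, 22.3, 15.5 and 25.6 in ok302, and 5.44, 12.9 and 16.1 in N2. The ust221 and ust223 libraries lay above all N2 libraries, and those of ust222 and ok302 overlapped them. The gene rose by 1.97 ± 0.43 in ust221 (edgeR, adjusted p = 0.038), a call lost without ust221 replicate 1 (0.052), N2 replicate 2 (0.0697) or N2 replicate 3 (0.0661) and with only the 6 libraries (0.16). Its fold change was 1.57 ± 0.42 in ust223 (adjusted p = 0.104) and 1.33 in the 12 libraries (0.00939).

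cyp-35A1 was a low-level gene at 2.30, 2.23 and 1.51 CPM in ust221, 0.671, 0.836 and 0.861 in ust222, 5.33, 4.44 and 1.6 in ust223, 3.51, 1.20 and 3.81 in ok302, and 0.626, 0.501 and 0.216 in N2. Every mutant library was above every N2 library, with ust223 replicate 3 and ok302 replicate 2 low within their genotypes. It rose by 3.05 ± 0.60 in ust223 (edgeR, adjusted p = 0.0225) and 2.63 ± 0.59 in ok302 (0.00646), and was 2.14 ± 0.58 higher in ust221 without passing (0.0724; 2.47 and 0.0341 in the 12 libraries). The ust223 call was lost without ust223 replicate 1 (0.099) or 2 (0.0929) or N2 replicate 2 (0.0815) or 3 (0.105). With only the 6 libraries of the comparison both calls were lost, in ust223 (0.223) and in ok302 (0.0578).

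cyp-35A4 had 4.13, 5.30 and 6.82 CPM in ust221, 1.86, 3.81 and 1.85 in ust222, 3.59, 3.96 and 1.99 in ust223, 3.93, 1.96 and 5.18 in ok302, and 0.900, 1.29 and 1.84 in N2. No mutant group overlapped N2, though the lowest ust222 libraries were only just above it. It rose by 1.46 ± 0.48 in ok302 (edgeR, adjusted p = 0.0412), a call lost without ok302 replicate 1 (0.096) or 3 (0.162) or without any one N2 library (0.0558 to 0.102) and with only the 6 libraries (0.122). In ust221 the value was 2.02 ± 0.49 (0.0524, and 0.0248 in the 12 libraries).

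cyp-35A5 is the member of the subfamily that lies in the 10-gene cluster. It had 34.5, 26.5 and 25.4 CPM in ust221, 5.11, 21.9 and 4.99 in ust222, and 2.74, 11 and 11.6 in N2. Its fold change was 1.77 ± 0.59 in ust221 (edgeR, adjusted p = 0.119), 0.33 ± 0.58 in ust222 (0.877), 1.06 ± 0.58 in ust223 (0.641) and 0.80 ± 0.58 in ok302 (0.331). In the 12 libraries the ust221 value was 1.42 (adjusted p = 0.0137).

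**Figure D2:**
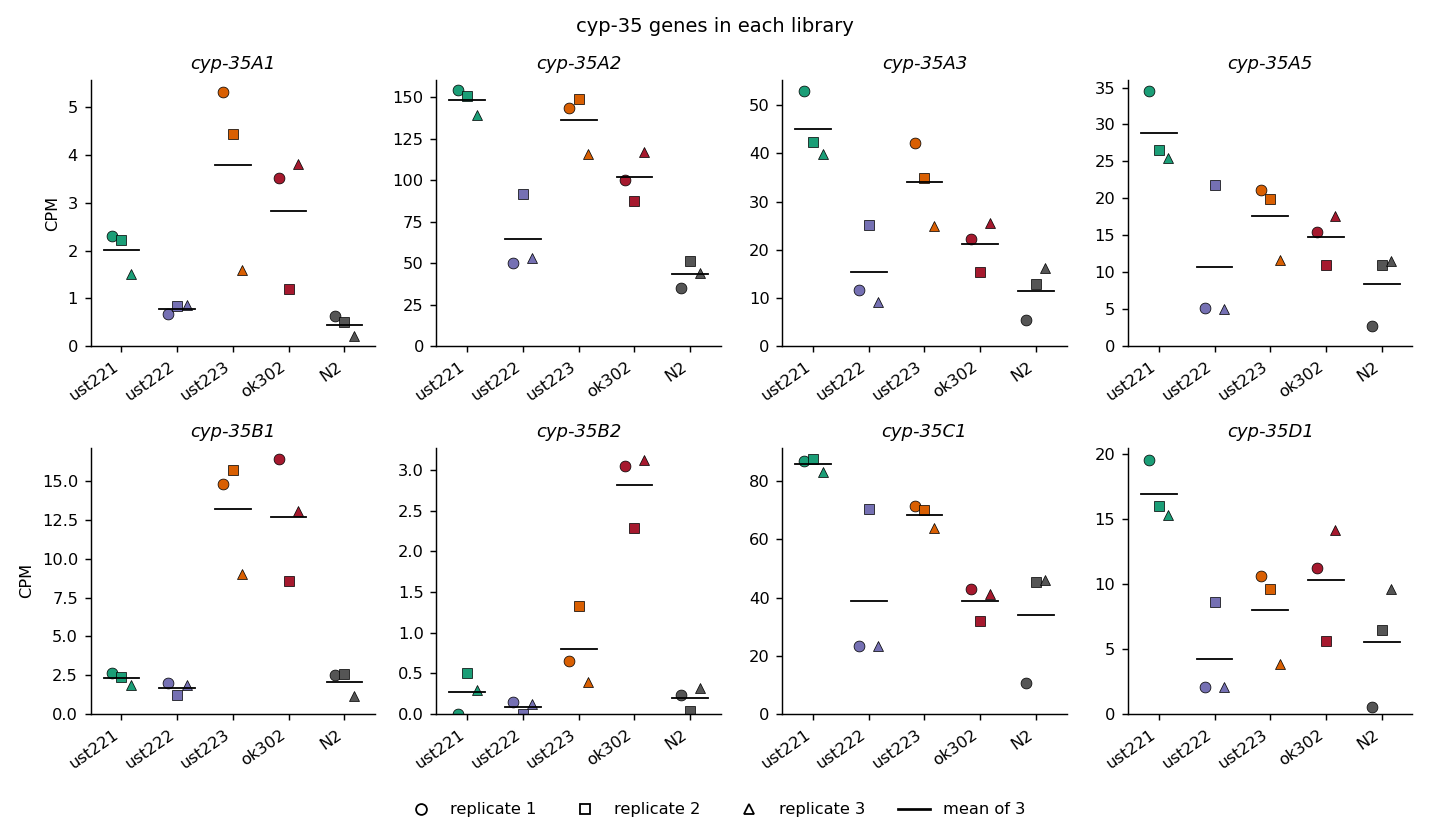
CPM of 8 cyp-35 genes in each library, for ust221, ust222, ust223, ok302 and N2. Symbols mark replicates 1 to 3 and lines the mean of 3. cyp-35A2 lies between 140 and 155 CPM in ust221 and between 34.8 and 51.2 in N2, and cyp-35B1 is above 8 CPM only in ust223 and ok302.

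Intestine markers moved in part with these genes. All 12 markers had a value above 0 in every library, and their summed level ranged from 6077 to 11680 CPM in ust221, 4685 to 6059 in ust222, 4600 to 7206 in ust223 and 5619 to 14420 in ok302, against 4356 to 7282 in N2. The 6 vitellogenin genes, which encode yolk proteins made in the adult intestine, summed to 36540 to 60980 CPM in ust221, 27260 to 34150 in ust222, 43980 to 65970 in ust223 and 27490 to 42760 in ok302, against 11760 to 32490 in N2. Their part in the cyp-35A values was not tested.

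In 2 other members of family 35, cyp-35C1 and cyp-35D1, the 3 libraries that stood apart were low. The same libraries were the lowest of all for cyp-35A3 and cyp-35A5 above. cyp-35C1, also known to respond to foreign compounds, stood at 86.8, 87.6 and 83.2 CPM in ust221, 23.3, 70.2 and 23.4 in ust222, 71.3, 70.1 and 64 in ust223, 42.9, 32 and 41.3 in ok302, and 10.6, 45.3 and 46.2 in N2. It was low in N2 replicate 1 and in ust222 replicates 1 and 3, and ust221 and ust223 lay above every N2 library. It did not pass in the 15 libraries (1.34 ± 0.48 in ust221, edgeR adjusted p = 0.143, and 1.01 ± 0.48 in ust223, 0.532) and rose in the 12 libraries, by 0.98 in ust221 (0.00654) and by 0.68 in ust223 (0.0208).

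cyp-35D1, which metabolises the drug thiabendazole, had 19.6, 16.1 and 15.3 CPM in ust221, 2.05, 8.64 and 2.11 in ust222, 10.6, 9.67 and 3.89 in ust223, 11.3, 5.60 and 14.2 in ok302, and 0.548, 6.51 and 9.63 in N2. The same 3 libraries were the lowest here too. Its fold change was 1.61 ± 0.80 in ust221 (edgeR, adjusted p = 0.262) and 0.90 ± 0.78 in ok302 (0.418), and no allele passed in the 12 libraries either (adjusted p = 0.0978 to 0.909).

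Of the cyp-35B genes, cyp-35B1 rose in ust223 and ok302, and cyp-35B2 in ok302. cyp-35B1, one of the genes described as acting downstream of the FOXO factor DAF-16, stood at 2.64, 2.40 and 1.88 CPM in ust221, 2.01, 1.25 and 1.85 in ust222, 14.8, 15.8 and 9.04 in ust223, 16.4, 8.55 and 13.1 in ok302, and 2.50, 2.57 and 1.19 in N2. All ust223 and ok302 libraries were above all libraries of the 3 other genotypes. It rose by 2.65 ± 0.40 in ust223 (edgeR, adjusted p = 0.00431) and by 2.59 ± 0.39 in ok302 (0.000746), and its values were 0.13 ± 0.38 in ust221 (0.873) and -0.30 ± 0.38 in ust222 (0.831). The ust223 call was lost with only the 6 libraries of the comparison (2.64, adjusted p = 0.123).

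Set against each other, the alleles differed for this gene: cyp-35B1 was lower than in ok302 by log2 -2.46 ± 0.39 in ust221 (edgeR, adjusted p = 0.00481) and by -2.89 ± 0.40 in ust222 (0.00182). Both calls held without each library. It was also lower in ust221 than in ust223, by -2.52 ± 0.39 (0.0103), a comparison added after the data were seen, and this call was lost without ust221 replicate 2 (0.0528) or ust223 replicate 1 (0.0535).

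The neighbouring copy cyp-35B2 had 0, 0.502 and 0.301 CPM in ust221, 0.149, 0 and 0.129 in ust222, 0.656, 1.33 and 0.399 in ust223, 3.05, 2.29 and 3.12 in ok302, and 0.235, 0.0358 and 0.325 in N2. Only the ok302 libraries exceeded 2 CPM. It rose by 3.84 ± 1.03 in ok302 (edgeR, adjusted p = 0.017), a call lost without ok302 replicate 1 (0.0503) or N2 replicate 2 (0.0562), and was 2.02 ± 0.99 in ust223 (0.553). How reads shared by the cyp-35B copies were assigned is not given in the sources used here, so the split among cyp-35B1, cyp-35B2 and cyp-35B3 is uncertain.

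Only part of the 10-gene cluster was called against N2. Of its 8 tested genes, none was called in ust221 or ust222, 1 (cyp-35B1) in ust223 and 3 (cyp-35B1, cyp-35B2 and cyp-34A9) in ok302. Of all genes tested, 1.13% rose in ust223 and 8.45% in ok302. Each of the 8 had a higher mean CPM than in N2 in both ust223 and ok302. Among all 67 tested P450 genes, 57 had a positive log2 fold change in ust223 and 56 in ok302. In ust221, cyp-34A9 (9.89 against 10.4) and cyp-34A10 (0.439 against 0.848) had a lower mean than in N2, and the other tested genes a higher one. In ust221 the largest positive values were those of cyp-35A5 (1.77 ± 0.59, edgeR adjusted p = 0.119) and cyp-34A8 (1.36 ± 0.44, 0.108), and cyp-35B1, which starts next to cyp-35A5 on the same strand, stood at 0.13. cyp-34A8 had 34.1, 36.3 and 20.1 CPM in ust221, 9.99, 22.3 and 9.98 in ust222, 15.7, 13.9 and 12.7 in ust223, 12.2, 21.0 and 13.1 in ok302, and 5.08, 16.4 and 13.9 in N2, and was singled out after its values were seen.

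**Figure D3:**
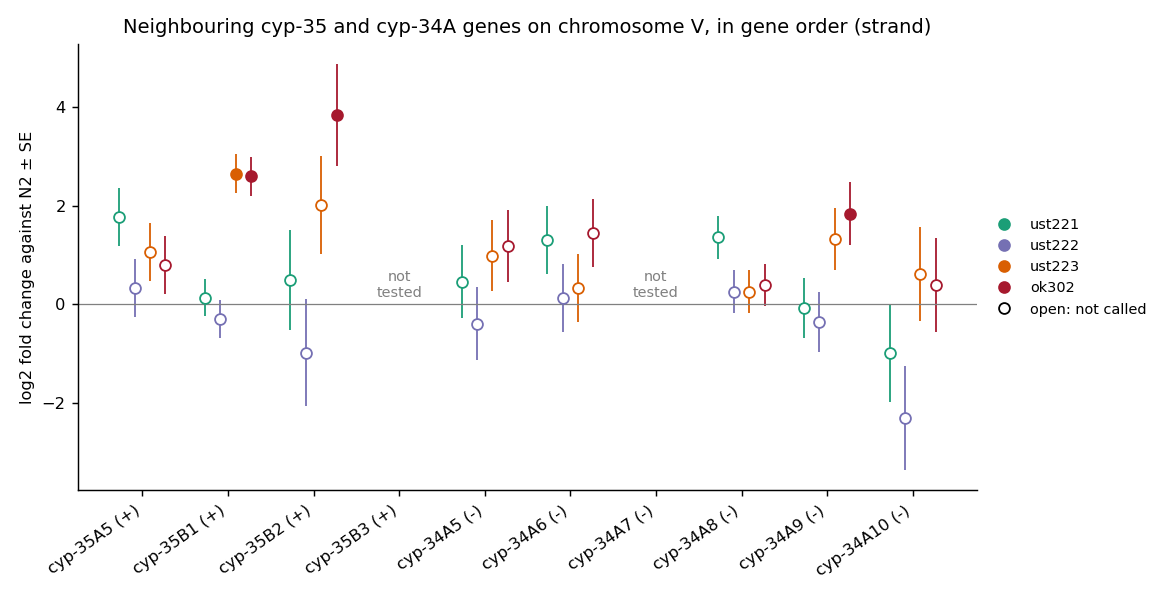
Log2 fold change against N2 ± standard error (edgeR) of the 10 neighbouring cyp-35 and cyp-34A genes on chromosome V, in gene order, for ust221, ust222, ust223 and ok302. Filled points passed the test: cyp-35B1 in ust223 (2.65) and ok302 (2.59), and cyp-35B2 (3.84) and cyp-34A9 (1.84) in ok302.

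The cyp-31A genes fell in ok302. cyp-31A2 and cyp-31A3 are needed to make the lipid layer that seals the eggshell of the embryo. cyp-31A2 stood at 91.8, 76.3 and 73.9 CPM in ust221, 63.3, 76.6 and 63.4 in ust222, 88.4, 81.8 and 103 in ust223, 36, 37.3 and 33.5 in ok302, and 50.1, 87.8 and 97.1 in N2. cyp-31A3 had 25.5, 25.2 and 22.7 CPM in the ok302 libraries, against 33.8, 59.9 and 59.8 in N2, and cyp-31A5 had 34.9, 36.1 and 36 against 38.5, 71.6 and 78.7. For all 3 genes every ok302 library was below every N2 library, and N2 replicate 1, one of the libraries that stood apart, was the lowest of N2.

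In ok302 the log2 fold change was -1.14 ± 0.21 for cyp-31A2 (edgeR, adjusted p = 0.0025), -1.06 ± 0.22 for cyp-31A3 (0.00398) and -0.82 ± 0.22 for cyp-31A5 (0.0166). The call of cyp-31A5 was lost without N2 replicate 2 (0.0552) or 3 (0.0796) and with library totals (0.0697). With the 12 libraries the 3 values were -1.37, -1.28 and -1.07. Against N2 no cyp-31A gene was called in the ust alleles, where values ran from -0.34 to 0.25. With the 12 libraries cyp-31A5 also fell in ust221 (-0.51, adjusted p = 0.0445).

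The ust alleles were higher than ok302 for the same genes. For cyp-31A2 the differences were 1.18 ± 0.22 in ust221 (edgeR, adjusted p = 0.00691), 0.93 ± 0.21 in ust222 (0.013) and 1.35 ± 0.22 in ust223 (0.00175), and these held without each library, with the ust221 value at 0.70 under library totals (0.0361). cyp-31A3 was higher by 0.96 ± 0.22 in ust221 (0.0136), 0.73 ± 0.22 in ust222 (0.0369) and 1.21 ± 0.22 in ust223 (0.00298). The ust222 call of cyp-31A3 was lost without ust222 replicate 1 (0.0637) or 2 (0.0704) or ok302 replicate 2 (0.0835), and the ust221 call with library totals (0.121). cyp-31A5 was called higher in ust223 alone (1.07 ± 0.22, 0.00577).

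cyp-31A2 and cyp-31A3 are close copies of each other, and reads that match several cyp-31A genes may have been split among them. cyp-31A5 also overlaps the coding gene Y62E10A.19 on the other strand, which had 837 counts in all against 20395 for cyp-31A5. Oocyte and eggshell markers moved in the same direction: their 12 genes, all above 0 in every library, summed to 4021 to 5432 CPM in the ok302 libraries, against 6170 to 9169 in ust221, 7304 to 7624 in ust222, 10210 to 11790 in ust223 and 8358 to 11530 in N2. Their part in the cyp-31A values was not tested.

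cyp-44A1, the one mitochondrial-type P450 of the worm, also fell in ok302. It had 30.0, 31.3 and 41.4 CPM in ust221, 28.3, 39.7 and 24.9 in ust222, 41.5, 41.6 and 47.7 in ust223, 23.8, 24.8 and 23 in ok302, and 27.5, 64.5 and 56.9 in N2. The ok302 libraries lay below those of every other genotype. The log2 fold change in ok302 was -1.06 ± 0.28 (edgeR, adjusted p = 0.0154), lost without N2 replicate 2 (0.0644) or 3 (0.0596) and with library totals (0.0688), and -1.34 in the 12 libraries (0.000142). Against ok302, ust223 was higher by 0.87 ± 0.28 (0.0457), lost without any one ust223 library (0.0836 to 0.142) or ok302 replicate 2 (0.104) and with library totals (0.108). The gene overlaps npp-24 on the same strand, whose total of 16987 counts compares with 13405 for cyp-44A1, so the split between them is uncertain.

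**Figure D4:**
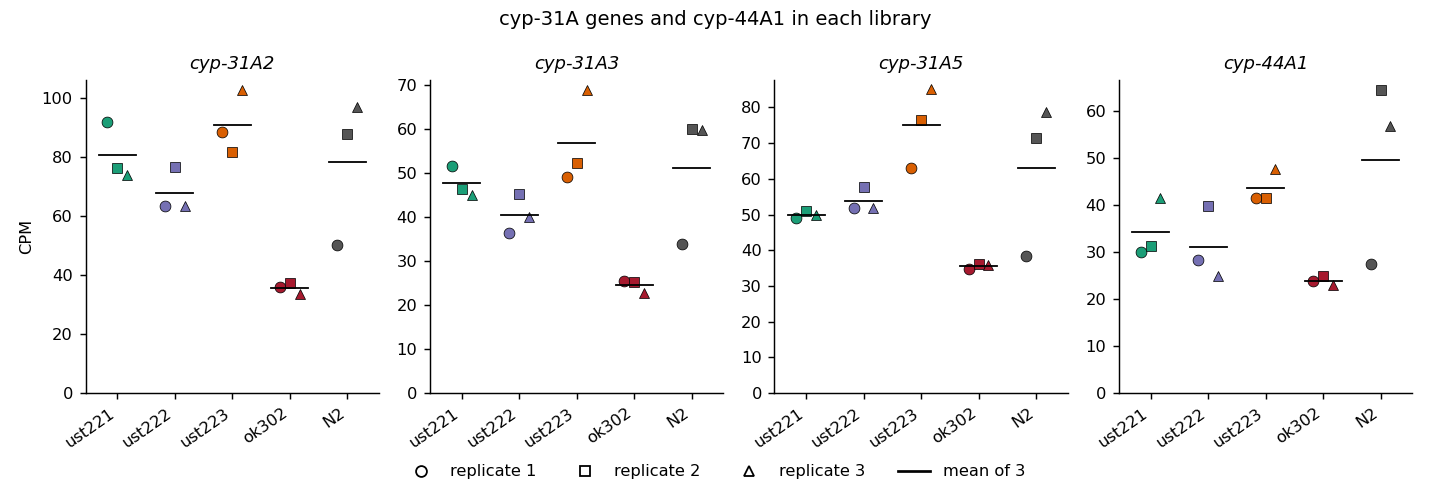
CPM of cyp-31A2, cyp-31A3, cyp-31A5 and cyp-44A1 in each library of ust221, ust222, ust223, ok302 and N2. Symbols mark replicates 1 to 3 and lines the mean of 3. For each gene the 3 ok302 libraries lie below all N2 libraries, of which replicate 1 is the lowest.

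Among the CYP3 genes, cyp-25A1 rose in ust223 and ok302. It had 10.7, 8.98 and 11.5 CPM in ust221, 9.77, 7.94 and 9.42 in ust222, 43.7, 46.4 and 43.4 in ust223, 30.4, 16.9 and 24.9 in ok302, and 2.78, 6.72 and 7.30 in N2. No mutant library fell within the N2 range, and ust223 lay above all other genotypes. The log2 fold change was 0.89 ± 0.32 in ust221 (edgeR, adjusted p = 0.138), 0.69 ± 0.32 in ust222 (0.62), 2.99 ± 0.34 in ust223 (0.00102) and 2.10 ± 0.33 in ok302 (0.000827), and no left-out library ended the last pair of calls.

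Compared among alleles, cyp-25A1 was lower than in ok302 by -1.21 ± 0.32 in ust221 (edgeR, adjusted p = 0.0227) and by -1.41 ± 0.32 in ust222 (0.0118), and lower in ust221 than in ust223 by -2.10 ± 0.32 (0.0103). The first call was lost without ust221 replicate 1 (0.0602) or 2 (0.0559) or ok302 replicate 1 (0.0665). The second was lost without ok302 replicate 1 (0.0578), and the last without ust223 replicate 1 (0.0512) or 3 (0.0535).

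The 3 other tested genes of the same cluster on chromosome III were not called against N2. cyp-25A2 had 32.2, 30.9 and 27.7 CPM in ust223 and 28.5, 18 and 26.8 in ok302, against 5.67, 18.7 and 12.2 in N2, and its values were 1.31 ± 0.36 in ust223 (edgeR, adjusted p = 0.11) and 1.00 ± 0.36 in ok302 (0.0564). cyp-25A3 and cyp-25A4 ranged from -0.44 to 0.30 over the 4 alleles, with adjusted p of 0.621 or more.

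cyp-43A1, the single member of its family, had 22.0, 25.4 and 21.4 CPM in ust221, 11.2, 15.5 and 9.94 in ust222, 18.4, 18.8 and 22.4 in ust223, 19.1, 17.3 and 20.9 in ok302, and 6.73, 12.4 and 11.7 in N2. Libraries of ust221, ust223 and ok302 all lay above N2. It rose by 1.16 ± 0.26 in ust221 (edgeR, adjusted p = 0.0393) and by 0.89 ± 0.26 in ok302 (0.0226), and was 0.95 ± 0.26 in ust223 (0.102; 0.81 and 0.0146 in the 12 libraries). The ust221 call was lost without ust221 replicate 2 (0.053) or N2 replicate 2 (0.0538) or 3 (0.078) and with only the 6 libraries (0.184). The ok302 call was lost with only the 6 libraries (0.0874). cyp-43A1 overlaps C41G11.1 on the other strand, with totals of 6094 and 2581 counts.

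The 11 cyp-13A genes, 8 of them in 1 cluster on chromosome II, had no call against N2 in any allele. cyp-13A12, whose product oxidises polyunsaturated fatty acids into signals that act on behaviour after low oxygen, had 0.813, 0.502 and 0.866 CPM in ust221, 1.90, 0.836 and 0.516 in ust222, 1.51, 1.40 and 2.62 in ust223, 0.837, 11.9 and 1.54 in ok302, and 1.64, 0.751 and 0.216 in N2. A single library, ok302 replicate 2, was far above the rest. Its value in ok302 was 2.43 ± 0.93 (edgeR, adjusted p = 0.0748; 3.22 and 0.0171 in the 12 libraries).

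In the cyp-14A genes, cyp-14A2 rose most in ust223. It stood at 5.21, 4.63 and 4.22 CPM in ust221, 2.54, 2.60 and 2.62 in ust222, 8.49, 8.44 and 9.04 in ust223, 3.26, 4.76 and 3.40 in ok302, and 1.88, 2.50 and 2.06 in N2. The ust223 libraries were above all others, and in each allele every library was above every N2 library. The fold change was 1.12 ± 0.28 in ust221 (edgeR, adjusted p = 0.0549), 0.27 ± 0.28 in ust222 (0.779), 2.01 ± 0.28 in ust223 (0.00301) and 0.83 ± 0.28 in ok302 (0.0442). The ust223 call held without each library but was lost with only the 6 libraries of the comparison (0.0961). The ok302 call was lost without any one of the 6 libraries (0.0556 to 0.178), with no filter on low counts (0.102) and with only the 6 libraries (0.25).

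cyp-14A2 was also higher in ust223 than in ok302, by 1.18 ± 0.27 (edgeR, adjusted p = 0.011), with or without each library. Its neighbour cyp-14A3, singled out after its values were seen, had 2.28, 2.87 and 2.06 CPM in ust223, against at most 0.628 CPM in any library of another genotype, and its fold change over N2 was 4.62 ± 1.26 without passing (0.109; 5.26 and 0.0253 in the 12 libraries). cyp-14A5, on chromosome V, had 12.8, 16.9 and 14.8 CPM in the ok302 libraries, against 4.34, 10.8 and 6.76 in N2, which do not overlap. It rose by 1.02 ± 0.32 in ok302 (0.0345), a call lost without ok302 replicate 2 (0.109) or 3 (0.0586) or N2 replicate 3 (0.114) and with only the 6 libraries (0.11).

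Several cyp-33C genes rose in ok302. Of the 8 tested, none was called in ust221, ust222 or ust223 and 4 were called in ok302, where 23.8% of all genes were called and 8.45% rose. In the 12 libraries 1 was called in ust221 (13.7% of all genes), 0 in ust223 (11.2%) and 6 in ok302 (49.9%). cyp-33C7 stood at 2.44, 2.01 and 2.11 CPM in ust221, 2.72, 2.14 and 1.72 in ust222, 3.17, 2.60 and 2.23 in ust223, 6.69, 7.42 and 5.67 in ok302, and 2.42, 1.39 and 1.95 in N2. The ok302 libraries were above all others. It rose by 1.78 ± 0.34 in ok302 (edgeR, adjusted p = 0.00252).

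Each ust allele was lower than ok302 for cyp-33C7, by -1.59 ± 0.34 in ust221 (edgeR, adjusted p = 0.0107), -1.59 ± 0.33 in ust222 (0.0089) and -1.31 ± 0.33 in ust223 (0.0169). The ust221 call held without each library. That of ust222 was lost without ust222 replicate 3 (0.0684), and that of ust223 without ust223 replicate 2 (0.0595) or 3 (0.085) or ok302 replicate 1 (0.0701) or 2 (0.064).

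cyp-33C8 had 15.2, 12.8 and 14 CPM in ust221, 15.8, 9.52 and 18.3 in ust222, 9.46, 12.2 and 12.3 in ust223, 24.2, 24.1 and 29 in ok302, and 10.2, 13.2 and 10.4 in N2. Here too the ok302 libraries were above all others. It rose by 1.19 ± 0.25 in ok302 (edgeR, adjusted p = 0.00476), and ust223 was lower than ok302 by -1.18 ± 0.25 (0.00704), both with or without each library. Against ok302 the values were -0.88 ± 0.25 in ust221 (0.0318) and -0.82 ± 0.25 in ust222 (0.0397), calls that were lost without any one of the 6 libraries of each comparison (0.0686 to 0.138 and 0.0762 to 0.348). The ust221 call was also lost with no filter (0.0718), and its value was -1.33 with library totals. That of ust222 was also lost with RLE scaling, library totals, no filter or only the 6 libraries (0.0518 to 0.142), and its value was -1.32 in the 12 libraries (0.00548).

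cyp-33C5 stood at 2.72, 2.44 and 3.44 CPM in ok302 and at 0.821, 0.679 and 0.379 in N2, with no overlap, and rose by 2.18 ± 0.52 (edgeR, adjusted p = 0.0094). It was lower than in ok302 by -2.11 ± 0.52 in ust221 (0.0188), -1.63 ± 0.51 in ust222 (0.044) and -1.66 ± 0.51 in ust223 (0.0391). The ust221 call was lost without ust221 replicate 1 (0.0698) or 2 (0.0664) or ok302 replicate 3 (0.0597), that of ust223 without any one of the 6 libraries (0.0752 to 0.136), and that of ust222 without ust222 replicate 1 (0.153) or 3 (0.128) or any one ok302 library (0.0779 to 0.174), and in the 12 libraries (0.231). With no filter the ust222 call (0.0939) and the ust223 call (0.0764) were lost, and that of ust222 also with only the 6 libraries (0.0762).

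The call of cyp-33C2 in ok302 (3.07 ± 0.99, edgeR adjusted p = 0.0395) rested on 1 library. Its levels were 0.502, 6.04 and 1.09 CPM in the ok302 libraries, against 0.587, 0.286 and 0 in N2, which overlap. Without ok302 replicate 2 the value was 1.41 (0.331), without N2 replicate 1 it was 3.99, and the call was also lost without ok302 replicate 3 (0.0553) or N2 replicate 2 (0.101) or 3 (0.0859), with no filter (0.0553) or with only the 6 libraries (0.188).

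cyp-33C4 was lower than in ok302 by -1.78 ± 0.34 in ust222 (edgeR, adjusted p = 0.00594), which held without each library, and by -1.14 ± 0.33 in ust223 (0.0309), which was lost without any one of the 6 libraries (0.0626 to 0.142) and with no filter (0.0801). It had 1.6, 1.49 and 1.85 CPM in ust222, 3.01, 2.97 and 1.76 in ust223 and 4.89, 6.69 and 5.43 in ok302. Both ust groups lay below ok302. cyp-33A1, the only member of its subfamily, went the other way in ust221: it had 32.3, 35.2 and 47.5 CPM there, against 18.1, 17 and 19 in ok302. That difference of 1.09 ± 0.34 (0.045) was lost with library totals (0.199) and without any one ust221 library (0.0713 to 0.127) or ok302 replicate 2 (0.121). In N2 cyp-33A1 had 13.8, 33.2 and 21.8 CPM, which overlap ust221, and it was not called in ust221 against N2.

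cyp-33E2, known for making eicosanoids from polyunsaturated fatty acids in the pharynx, had 6.23, 7.17 and 10.2 CPM in ok302 and 3.36, 5.22 and 3.14 in N2, which do not overlap, and a fold change of 1.00 ± 0.35 (edgeR, adjusted p = 0.0501). In ust222 it was lower than in ok302 by -1.09 ± 0.35 (0.047), a call lost without any one library other than ust222 replicate 2 (0.0846 to 0.303), with RLE scaling, library totals, no filter or only the 6 libraries (0.0501 to 0.113), and in the 12 libraries (0.193). cyp-29A3, also linked to eicosanoids, had 16.3, 14.8 and 10.2 CPM in ust221, 1.90, 7.80 and 1.76 in ust222, 5.36, 5.88 and 5.68 in ust223, 1.97, 1.02 and 2.59 in ok302, and 1.80, 8.12 and 7.36 in N2. It was low in ok302 and in the 3 libraries that stood apart, and highest in ust221.

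Against N2, cyp-29A3 was at 1.26 ± 0.62 in ust221 (edgeR, adjusted p = 0.26) and -1.63 ± 0.63 in ok302 (0.0776), and in the 12 libraries it fell in ok302 (-2.05, 0.000304). It was higher in ust221 than in ok302 by 2.89 ± 0.66 (0.0137), a call lost without ok302 replicate 2 (0.0541).

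cyp-29A4 was close to absent in N2 and present in ust223 and ok302. It had 0.136, 0.0558 and 0.151 CPM in ust221, 0.485, 0.325 and 0.0430 in ust222, 1.31, 1.33 and 1.5 in ust223, 1.42, 0.982 and 2.15 in ok302, and 0.0782, 0.0358 and 0 in N2. Summed over 3 libraries these were 118 counts in ust223 and 114 in ok302, against 3 in N2, ratios of 33.2 (95% interval 11.1 to 163) and 36 (12 to 177) that cover counting error only. edgeR gave adjusted p = 0.0165 in ust223 and 0.00188 in ok302.

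The ok302 call of cyp-29A4 held without each library, while that of ust223 was lost without any one ust223 library (0.052 to 0.058) or N2 replicate 2 (0.0756) or 3 (0.0635) and with only the 6 libraries (0.123). Without N2 replicate 1 the fitted log2 fold change was 5.81 in ust223, against 4.92 with it, and 5.86 in ok302, against 5.06. The gene was lower than in ok302 in ust221 (-3.66 ± 0.83, edgeR adjusted p = 0.0137) and ust222 (-2.38 ± 0.75, 0.0455). The first was lost without ust221 replicate 1 (0.0579) or 2 (0.0545), and the second without ust222 replicate 1 (-3.02, 0.0579) or 3 (-1.65, 0.149) or any one ok302 library (0.0672 to 0.172), with no filter (0.0759) or only the 6 libraries (0.104), and in the 12 libraries (0.0677).

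cyp-36A1, which acts in the response to the oxygen-sensing enzyme EGL-9, had 12.1, 14.7 and 13.9 CPM in ust221, 6.79, 7.85 and 5.55 in ust222, 10.0, 11.2 and 13.6 in ust223, 13.7, 12.7 and 15.7 in ok302, and 3.99, 8.22 and 7.74 in N2. The ust221, ust223 and ok302 libraries lay above all N2 libraries. It rose by 1.08 ± 0.29 in ok302 (edgeR, adjusted p = 0.016), with or without each library but not with only the 6 libraries of the comparison (0.0762), and stood at 1.03 ± 0.29 in ust221 (0.0757; 0.84 and 0.0262 in the 12 libraries). It was lower in ust222 than in ok302 by -1.06 ± 0.29 (0.0248), lost without ust222 replicate 1 (0.0751) or 3 (0.095) or ok302 replicate 1 (0.0588) or 3 (0.088) and in the 12 libraries (0.0653). The gene overlaps figo-1 on the other strand, which had 11312 counts in all against 3829.

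cyp-34A9, another gene described downstream of DAF-16, cyp-37B1 and cyp-32B1 were high in ok302, in ust223 and in N2 replicate 1. cyp-34A9 stood at 9.96, 8.76 and 11 CPM in ust221, 9.55, 5.06 and 9.77 in ust222, 28.8, 24.7 and 24.8 in ust223, 41.4, 28.5 and 42 in ok302, and 25, 3.29 and 2.92 in N2. cyp-37B1 had 2.10, 2.29 and 1.24 CPM in ust221, 2.50, 1.86 and 2.88 in ust222, 6.06, 6.46 and 7.87 in ust223, 16.1, 11.1 and 19.6 in ok302, and 13.7, 0.930 and 0.433 in N2. cyp-32B1 had 2.51, 1.56 and 1.69 CPM in ust221, 3.84, 0.975 and 4.30 in ust222, 13.8, 15.3 and 19.7 in ust223, 23.4, 14 and 20.5 in ok302, and 16.5, 2.32 and 2.27 in N2. In each case N2 replicates 2 and 3 lay far below N2 replicate 1.

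With all N2 libraries only cyp-34A9 was called among the 3, in ok302 (1.84 ± 0.63, edgeR adjusted p = 0.0494), and this value was 3.59 without N2 replicate 1 (2.71e-05). That call was lost without any other one of the 6 libraries (0.0718 to 0.216), and with RLE scaling (0.0701), library totals (0.061), no filter (0.0851) or only the 6 libraries (0.267). In the 12 libraries cyp-34A9 rose in ust221 (1.75, 0.0028), ust223 (3.16, 1.92e-05) and ok302 (3.59, 6.91e-06), and cyp-37B1 in ust221 (1.46, 0.0325), ust223 (3.35, 0.00025) and ok302 (4.47, 1.51e-05). cyp-32B1 rose there in ust223 (2.91, 0.000108) and ok302 (3.07, 2.38e-05).

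cyp-32A1, also of the CYP4 clan, rose in ok302. It had 6.86, 7.13 and 4.70 CPM in the ok302 libraries, against 3.05, 1.61 and 1.89 in N2, which do not overlap, and rose by 1.51 ± 0.44 (edgeR, adjusted p = 0.0243). The call was lost without any one library other than N2 replicate 1 (0.0655 to 0.126), with no filter (0.0557) and with only the 6 libraries (0.101). cyp-42A1, of the same clan, did not pass in the 15 libraries: it had 6.48, 10.6 and 7.82 CPM in the ok302 libraries, against 6.10, 2.43 and 1.46 in N2, and stood at 1.31 ± 0.52 (0.0837; 2.08 and 0.000432 in the 12 libraries). cyp-23A1 stayed under 2 CPM in all libraries, and its values against N2 had adjusted p of 0.263 or more.

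cyp-34A2 was high in ust223 and ok302, like cyp-34A9, but low in N2 replicate 1. It had 0.948, 1.06 and 0.753 CPM in ust221, 3.36, 0 and 4.04 in ust222, and 9.69, 11.1 and 12 in ust223. In ok302 it had 11.3, 12.4 and 11.7 CPM, and in N2 1.99, 0.536 and 0.0541. The ust223 and ok302 libraries were above all others. It rose in ok302 by 3.75 ± 1.15 (edgeR, adjusted p = 0.0313), a call lost without any one library other than N2 replicate 1 (0.0659 to 0.0965) or with only the 6 libraries (0.0631), and at 5.21 without that one. In ust223 it stood at 3.64 ± 1.14 (0.194), and in the 12 libraries at 5.14 (3.64e-05).

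Molting and hypodermis markers moved in part with cyp-34A9, cyp-37B1, cyp-32B1 and cyp-34A2. The 12 molting genes summed to 42.8 to 97.4 CPM in ust221, 62.8 to 734 in ust222, 182 to 291 in ust223 and 603 to 789 in ok302, against 67.8 to 606 in N2. They stood at 713 and 734 CPM in ust222 replicates 1 and 3. There each of these P450 genes was above its level in ust222 replicate 2 but below its level in every ok302 library. The 10 hypodermis genes summed to 120 to 151 CPM in ust221, 157 to 736 in ust222, 243 to 349 in ust223 and 416 to 503 in ok302, against 185 to 727 in N2. Each of these genes was above 0 in every library, other than 1 molting gene at 0 in ust222 replicate 3, and their part in the P450 values was not tested.

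**Figure D5:**
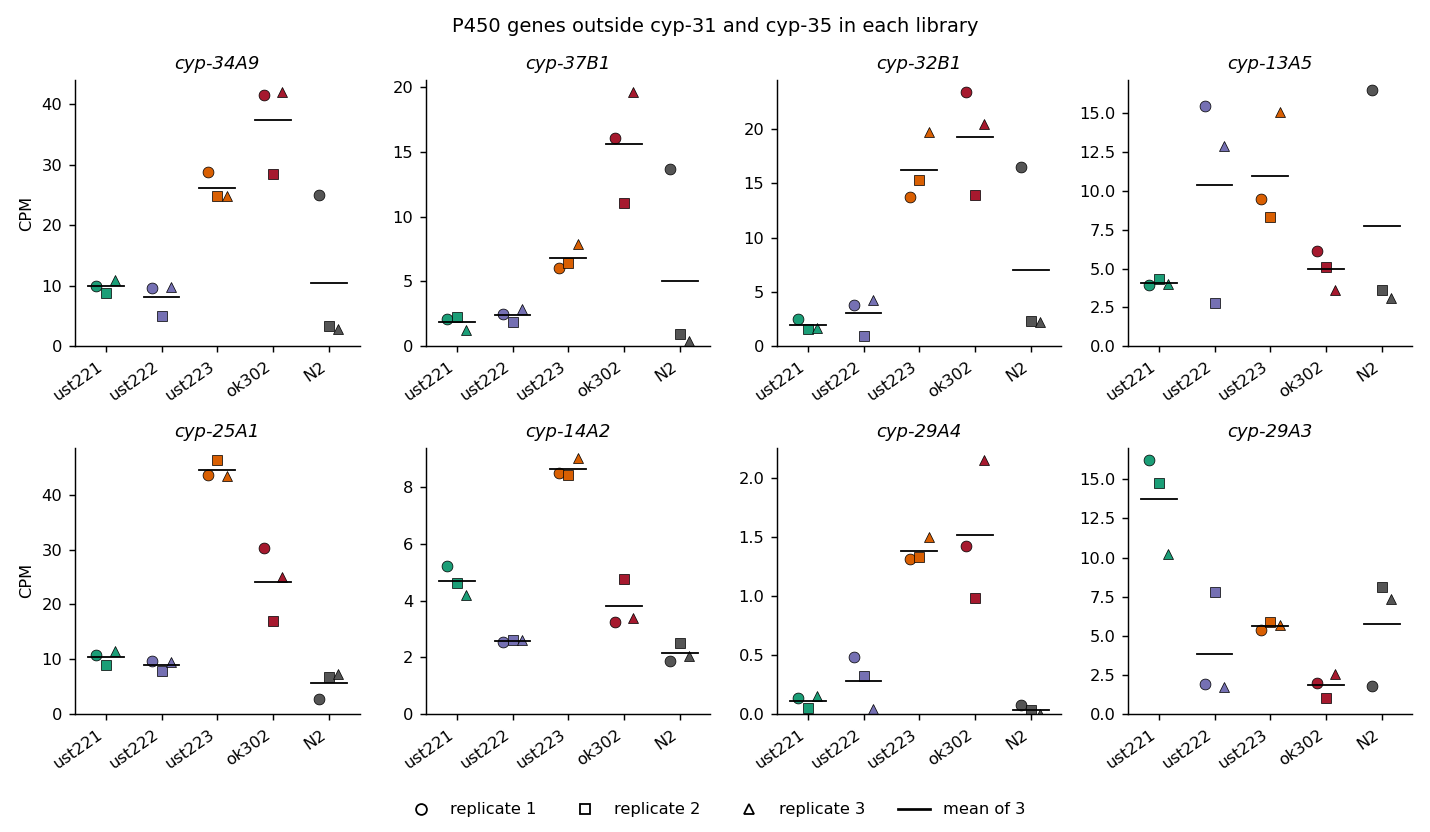
CPM of 8 P450 genes outside families 31 and 35 in each library of ust221, ust222, ust223, ok302 and N2. Symbols mark replicates 1 to 3 and lines the mean of 3. In the upper row N2 replicate 1 lies far above N2 replicates 2 and 3 (25 against 3.29 and 2.92 CPM for cyp-34A9), and in the lower row cyp-25A1 and cyp-14A2 are highest in ust223.

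Between the ust alleles and ok302, 4 P450 genes were higher and 13 lower in ust221 (10.9% and 5.85% of all genes tested), 2 and 15 in ust222 (7.62% and 9.25%), and 5 and 4 in ust223 (12.2% and 5.58%). These comparisons share the ok302 libraries. Without each library in turn, 4 calls were left in ust221 (cyp-31A2, cyp-31A3, cyp-33C7 and cyp-35B1) and 4 in ust222 (cyp-31A2, cyp-33C4, cyp-35B1 and cyp-35B2). In ust223, 5 were left (cyp-14A2, cyp-31A2, cyp-31A3, cyp-31A5 and cyp-33C8). The share of all genes with calls left in this way was not counted. In the 12 libraries the counts were 11 higher and 22 lower in ust221 (21.2% and 19.8% of all genes), 6 and 19 in ust222 (16.2% and 15.5%, or 31.7% in all), and 14 and 6 in ust223 (22.7% and 20.1%).

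The largest difference held in this way was that of cyp-35B2, lower in ust222 than in ok302 by -4.82 ± 1.10 (edgeR, adjusted p = 0.0122). In the 12 libraries, where the ust222 library left has 0 counts, the fitted value was -9.04 (0.0104). In ust221, cyp-34A2 (-3.68 ± 1.15, 0.0446) and cyp-35B2 (-3.34 ± 1.00, 0.0381) were also lower than in ok302, calls lost without any one of the 6 libraries (0.087 to 0.156 and 0.0699 to 0.116). cyp-35B2 was at -4.12 without ust221 replicate 2. cyp-32B1 was lower in ust222 by -2.66 ± 0.72 (0.0254), lost without ust222 replicate 1 (0.0614) or 3 (0.0644) or ok302 replicate 1 (0.0989) or 3 (0.0873), and its value was -4.18 in the 12 libraries (0.000369).

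cyp-33D3 had 2 counts over the ust221 libraries and 31 over those of ok302, a ratio of ok302 to ust221 of 12.1 (95% interval 3.07 to 104, counting error only), with an edgeR adjusted p of 0.0381. That call was lost without any one library other than ust221 replicate 3 (0.0677 to 0.131) and with no filter (0.0649). Without ust221 replicate 3 its fitted value was -6.33 (0.0251).

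ust221 and ust223, set against each other after the data were seen, gave 4 calls, all lower in ust221, which is 5.97% of the 67 tested, against 1.34% of all genes lower and 2.42% higher, or 3.76% in all. Beside cyp-25A1 and cyp-35B1 above, these were cyp-29A4 (-3.52 ± 0.83, edgeR adjusted p = 0.0377) and cyp-32B1 (-3.08 ± 0.74, 0.0397). Both were lost without any one of the 6 libraries (0.0579 to 0.144 and 0.0812 to 0.169). Same-numbered libraries of these genotypes deviated together, so the replicate number was also fitted as a block. There cyp-29A4 had an edgeR adjusted p of 0.0533 and 3 calls were left, with 2.77% of all genes called. The 12 libraries gave 4 genes higher and 14 lower (10.3% and 11% of all genes, or 21.3% in all).

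Genes that work with P450 enzymes were also counted. Of 18 partner and regulator genes, 17 were tested (hsd-1 was not), and none rose or fell in ust221 or ust222. In ust223, 1 rose (5.88% of 17, against 1.13% of all genes tested), and in ok302, 3 rose (17.6%, against 8.45%). The shared electron donor emb-8 had 174, 181 and 173 CPM in ust221, 139, 158 and 138 in ust222, 150, 157 and 212 in ust223, 127, 123 and 123 in ok302, and 123, 149 and 171 in N2. Its values against N2 ran from -0.25 ± 0.16 in ok302 (edgeR, adjusted p = 0.263) to 0.25 ± 0.16 in ust221 (0.374).

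The epoxide hydrolases, which open the fatty acid epoxides that P450 enzymes make, were among the calls. ceeh-1 had 20.6, 20.7 and 19.7 CPM in ust221, 11.8, 13.4 and 10.7 in ust222, 19.9, 24.7 and 21.5 in ust223, 21.2, 19.1 and 26.3 in ok302, and 6.92, 13.9 and 8.60 in N2. Libraries of ust221, ust223 and ok302 were above all N2 libraries, and those of ust222 overlapped them. ceeh-1 rose by 1.17 ± 0.25 in ust223 (edgeR, adjusted p = 0.039) and by 1.18 ± 0.25 in ok302 (0.00527), and stood at 1.05 ± 0.25 in ust221 (0.0524). The ust223 call was lost without any one ust223 library (0.1 to 0.182) or N2 replicate 3 (0.167) and with only its 6 libraries (0.273), and the ok302 call with only its 6 libraries (0.0517).

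ceeh-2 had 13.2, 13.4 and 9.72 CPM in ok302 and 3.21, 5.44 and 3.30 in N2, which do not overlap, and rose by 1.6 ± 0.36 (edgeR, adjusted p = 0.00708). daf-9, the P450 that makes the sterol hormone dafachronic acid and whose symbol lies outside the rule, had 0.542, 1.17 and 1.05 CPM in ust221, 1.12, 1.49 and 1.72 in ust222, 0.888, 1.30 and 0.266 in ust223, 2.97, 3.06 and 2.55 in ok302, and 0.939, 1.11 and 0.757 in N2. It was above all others in ok302 and rose there by 1.6 ± 0.53 (0.0416), a call lost without any one of the 6 libraries (0.0533 to 0.13), with no filter (0.0754) and with only the 6 libraries (0.0668). In the 12 libraries 2 of the 17 partner genes rose in ust221 (11.8%, against 7.0% of all genes), none in ust222 (0.0109% of all genes), 3 in ust223 (17.6%, against 7.84%) and 8 in ok302 (47.1%, against 26.2%).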

How the data were processed

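Poly-A RNA of young adult worms was sequenced in 15 libraries, per the labels' protocols. The authors deposited raw whole-number counts for every gene and library, with gene lengths and coordinates. HISAT2 2.0.5 appears in the submitters' processing notes. The counter, genome build, strand setting and treatment of shared reads are not given there. Symbols were looked up by gene identifier.

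The deposited counts entered edgeR 4.0.16 (R 4.3.3): filterByExpr kept 17217 genes, libraries were scaled by TMM, and 1 quasi-likelihood fit over the 15 libraries gave each genotype its own mean. P-values were adjusted by Benjamini-Hochberg over all genes tested. A standard error is the size of the log2 fold change over the root of F, and CPM uses TMM-scaled totals. The steps were first tested on simulated data. A floor of 3 counts is 0.0996 to 0.203 CPM per library on this scale.

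Members, lists and rules were chosen with earlier results of these data known. Named genes were up to 10 called per direction against N2 and 4 against ok302, the 6 of highest level per kilobase in N2, and a list with published roles. cyp-13A5, cyp-13A8, cyp-14A3, cyp-14A4, cyp-25A3, cyp-25A4, cyp-32A1 and cyp-34A8 were chosen after their values were seen. Same-numbered libraries of ust221 and ust223 deviated together (correlations 0.138, 0.254 and 0.318, above 0.1 in every pair), which counts as pairing here. No other comparison met this. Alternatives were DESeq2 1.42.0, RLE and library-total scaling, no filter, the 6 libraries of a comparison, a replicate block and leaving out each library.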

Additional observations from a re-analysis of the deposited data

How the results depend on the processing

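The N2 libraries differ among themselves. Depth limits the members under about 10 counts in a library, and the assignment of reads shared by the cyp-31A and cyp-35B copies is not given in the sources used here. Library totals moved the median of all genes by -0.25 in ust221, 0.13 in ust222 and 0.20 in ok302 against N2, by -0.45 in ust221 and -0.13 in ust223 against ok302, and by -0.34 between ust221 and ust223; RLE scaling moved it by 0.11 in ust222.

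Counts of P450 calls were as follows. Without single libraries, the share of all genes called ranged from 0.469% to 8.41% in ust221, 0.00565% to 5.47% in ust222, 0.482% to 3.06% in ust223 and 13.2% to 39.3% in ok302 against N2. In ust221 against N2 the 3 calls (1.79% of all genes) became 6 with RLE (4.25%), 12 with DESeq2 (12%) and 1 with the replicate block (0.958%). They became 0 with only the 6 libraries (edgeR, 0.00666%) and 16 in the 12 (13.7%), and ranged from 1 to 12 without single libraries. In ust222 against N2 the 0 calls ranged from 0 to 4. In ust223 against N2 the 6 calls (1.35%) became 13 with DESeq2 (4.24%), 2 with the 6 libraries (0.202%) and 20 in the 12 (11.2%), ranging from 4 to 11. In ok302 against N2 the 22 calls (23.8%) became 12 with the 6 libraries (18.1%) and 38 in the 12 (49.9%), ranging from 13 to 30.

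In ust221 against ok302 the 17 calls (16.7% of all genes) became 31 with the 6 libraries (40.2%) and 33 in the 12 (41%). They ranged from 5 to 11 without single libraries (4.07% to 14.5%), and library totals gave 2 up and 17 down (2.11% and 9.16%). In ust222 against ok302 the 17 calls (16.9%) became 11 with no filter (14%), ranging from 6 to 19 (7.86% to 24.4%). In ust223 against ok302 the 9 calls (17.8% of all genes) became 27 with the 6 libraries (54.2%) and 20 in the 12 (42.8%), ranging from 5 to 8 (7.86% to 16.3%). In ust221 against ust223 the 4 calls (3.76%) became 7 with library totals (10.3%) and 10 with DESeq2 (13%). They became 16 with the 6 libraries (20.3%) and 18 in the 12 (21.3%), and ranged from 0 to 2 (0.0737% to 4.88%). Against N2, partner genes in ust221 went to 1 with RLE or no filter (2.15% of all genes with no filter). They went to 2 with DESeq2 or the 12 libraries, ranging from 0 to 1. In ust222 they ranged from 0 to 1. In ust223 they went to 0 with the 6 libraries and 3 in the 12, ranging from 0 to 1. In ok302 they went to 1 with the 6 libraries and 8 in the 12, ranging from 2 to 6. Shares of all genes for the other fits are those given above for each allele against N2.

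Of 2485 values of single genes under an alternative, 106 turned sign with the gene called neither there nor with all libraries, and 5 turned with a call under the alternative. Those 5 turned positive. For cyp-34A9 they were 1.75 in ust221 both without N2 replicate 1 and in the 12 libraries, and 1.68 in ust222 without N2 replicate 1, beside lowest values of -0.52 and -0.80 without N2 replicate 3. For cyp-37B1 they were 1.46 in ust221 in the 12 libraries and 2.08 in ust222 without N2 replicate 1, beside a lowest ust222 value of -1.6 without N2 replicate 3. The cause was not tested. Outside ust221 against ust223, replicate numbers paired no compared groups: between 0 and 4 of 6 libraries correlated best with their own number. The replicate block gave 1 P450 call in ust221 and 22 in ok302 against N2, beside 0.958% and 21.9% of all genes.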

Other observations

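A few P450 genes were high in ok302 replicate 2 alone. cyp-13A8 had 0.209, 5.86 and 0.243 CPM in the ok302 libraries, against 0.313, 0.0358 and 0.325 in N2. cyp-14A4 had 0.711, 4.69 and 0.284 CPM in the ok302 libraries, against 0.0782, 0.679 and 0.433 in N2. Neither passed the test (3.23 ± 1.52, edgeR adjusted p = 0.14, and 2.24 ± 1.13, 0.165). With cyp-13A12 and cyp-33C2 described above, these 4 genes lie on chromosomes II, X, III and V.

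cyp-13A5, from the cluster on chromosome II, had 15.4, 2.79 and 12.9 CPM in ust222 and 16.5, 3.65 and 3.08 in N2, high in the 3 libraries that stood apart. It had 3.93, 4.35 and 3.99 CPM in ust221, 9.46, 8.34 and 15.1 in ust223, and 6.11, 5.09 and 3.65 in ok302. It was not called against N2 in any allele with all libraries, and it rose in ust223 in the 12 libraries (1.78, edgeR adjusted p = 0.00329). These genes were chosen after their values were seen.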
